A study of Mus musculus with 4 samples.

Results

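The small leucine-rich proteoglycans are a family of secreted matrix proteins, and 10 of their genes are described here: Aspn, Bgn, Dcn, Lum, Fmod, Ogn, Omd, Prelp, Epyc and Kera. Members were taken as every probe set that the array annotation pairs with exactly 1 symbol of this list, which gave 14 probe sets of the 45037 that are not controls, and 10 genes of 17097. The list is one of family membership, but it was selected on the knockdown against scramble values of these same arrays, those of Aspn above all, so the values of the members are a description and carry no test. The study measured RNA from mouse brown adipocytes after 6 days of differentiation, from 250 ng of total RNA per array. There were 2 arrays of cells carrying a short hairpin RNA (shRNA) against Blnc1, a long noncoding RNA of brown fat, and 2 arrays of cells carrying a scrambled shRNA. Both groups were cultured cells that expressed an shRNA, and the labels give no cell line, passage or number of hairpins. The labels call the arrays biological replicates and do not say whether these were separate transductions or parallel dishes. The level of Blnc1 itself was not analysed here.

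Each protein of the family has a core of leucine-rich repeats, and most carry chondroitin, dermatan or keratan sulfate chains. They bind fibrillar collagen at the surface of fibrils, where they act on fibril width and spacing, and several bind TGF-beta or receptors such as TLR2, TLR4 and EGFR. In fat they come mainly from fibroblast-like progenitor cells.

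Values are log2 expression values as deposited, where 1 unit is a doubling. Control probe sets of antigenomic sequence match nothing in the mouse genome. Those with 3 to 24 G or C bases reached at most 2.55, and this value is called background here. The values of the 14 probe sets on each array are drawn in the plot of members by array. On all 4 arrays 12 probe sets, from 8 genes, lay above background, and those of Epyc and Kera did not on any. Differences are knockdown minus scramble, with the standard error (SE) of the limma fit across all probe sets (n = 2 arrays per group). A probe set is not compared in level with another, since probes differ in how strongly they bind.

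**Figure D1:**
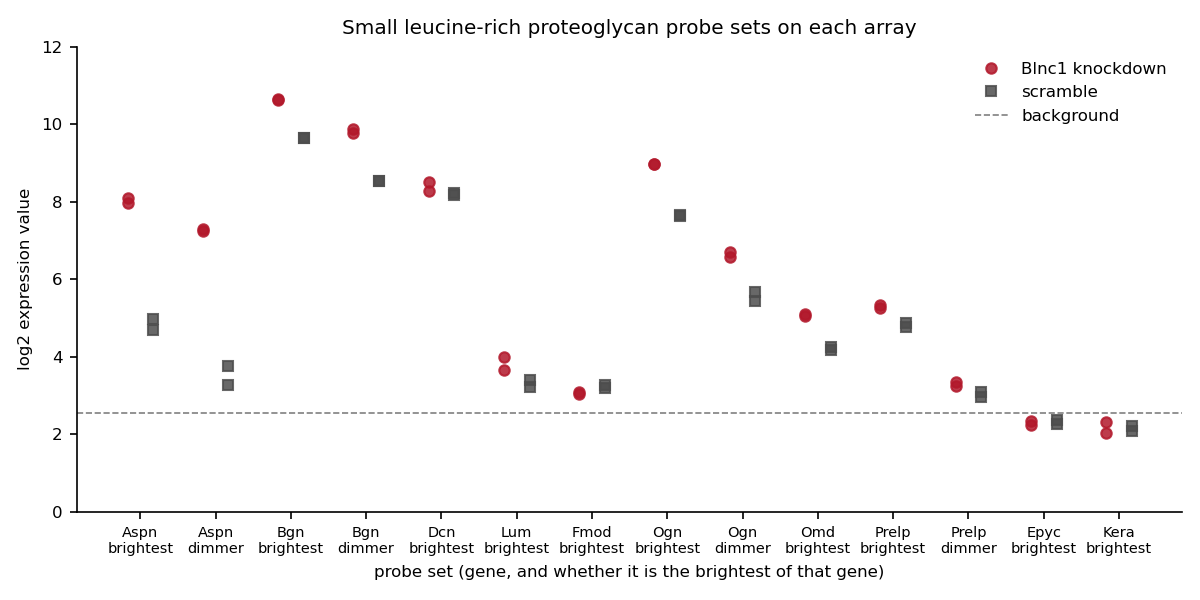
The log2 expression value of each of the 14 probe sets is plotted per array, with the 2 Blnc1 knockdown arrays as circles to the left of the 2 scramble arrays as squares, and the background value of 2.55 as a dashed line. The groups stand apart most for both Aspn probe sets, and Epyc and Kera lie under the line in both groups.

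Aspn encodes asporin, a class I member that carries a run of aspartates near its amino terminus in place of a glycosaminoglycan attachment site and that inhibits TGF-beta signalling. Its brightest probe set (Entrez Gene 66695) read 7.96 and 8.10 on the knockdown arrays, against 4.98 and 4.70 on the scramble arrays. The groups were 2.98 apart at their nearest values, and the 2 arrays of a group differed by 0.14 in knockdown and 0.28 in scramble. The log2 difference was 3.19 ± 0.13 (SE), a 9.12-fold higher value. A dimmer probe set read 7.24 and 7.31 in knockdown, against 3.27 and 3.77 in scramble, a log2 difference of 3.76 ± 0.17. Both probe sets placed the groups far apart and above background. The value 3.27 on scramble replicate 1 was shared, digit for digit, by 31 probe sets of that array, the probe set of Fmod among them, so it is less exact than its decimals. By its suffix, the brightest probe set may also match other transcripts.

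Bgn encodes biglycan, a class I proteoglycan with chondroitin or dermatan sulfate chains that can signal through TLR2 and TLR4 once released from the matrix. Its brightest probe set read 10.64 and 10.66 in knockdown, against 9.65 and 9.64 in scramble, a log2 difference of 1.01 ± 0.10. The second read 9.79 and 9.88 in knockdown, against 8.54 and 8.53 in scramble, a difference of 1.30 ± 0.10. Replicates lay within 0.09 of each other for both probe sets, and all knockdown values were above all scramble values.

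Dcn encodes decorin, the closest relative of biglycan and the best known regulator of collagen fibrils. It read 8.51 and 8.27 in knockdown, against 8.22 and 8.17 in scramble, a log2 difference of 0.19 ± 0.12. The knockdown arrays were both higher, but the gap of 0.05 between the groups was smaller than the 0.24 between the knockdown arrays.

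Ogn encodes osteoglycin (mimecan), a class III member that is secreted by bone and other connective tissue cells. Its brightest probe set read 8.99 and 8.97 in knockdown, against 7.67 and 7.64 in scramble, a log2 difference of 1.32 ± 0.10, or 2.50-fold. The dimmer one read 6.59 and 6.72 in knockdown, against 5.68 and 5.45 in scramble, a difference of 1.09 ± 0.12. The probe sets of Ogn thus gave like differences, each larger than the gap between replicates.

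Omd encodes osteomodulin (osteoadherin), a class II keratan sulfate proteoglycan with sulfated tyrosines, best known from bone. It read 5.10 and 5.06 in knockdown, against 4.16 and 4.26 in scramble, a log2 difference of 0.87 ± 0.10, or 1.83-fold. The groups did not overlap, and replicates differed by 0.04 in knockdown and 0.09 in scramble.

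Prelp encodes prolargin, a class II member that can bind basement membrane perlecan to collagen. Its brightest probe set, which by its suffix may also match other transcripts, read 5.33 and 5.26 in knockdown, against 4.78 and 4.88 in scramble. The log2 difference was 0.47 ± 0.10. The dimmer one, nearer to background, read 3.24 and 3.35 in knockdown, against 2.97 and 3.10 in scramble, a difference of 0.26 ± 0.11. Neither probe set showed overlapping groups, and the differences were smaller than those of Aspn, Bgn, Ogn and Omd.

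Lum encodes lumican and Fmod fibromodulin, class II keratan sulfate proteoglycans that bind the same region of collagen. Lum read 3.98 and 3.65 in knockdown, against 3.22 and 3.40 in scramble, a log2 difference of 0.50 ± 0.14. The knockdown arrays differed by 0.33 and lay 0.25 above scramble at the nearest values. Fmod read 3.10 and 3.05 in knockdown, against 3.27 and 3.19 in scramble, a log2 difference of -0.15 ± 0.10. It was the only member above background whose knockdown mean was under its scramble mean, and all its values were close to background.

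Epyc encodes epiphycan, a cartilage member of class III, and Kera keratocan, a class II member of the cornea. Epyc read 2.34 and 2.23 in knockdown, against 2.28 and 2.36 in scramble. Kera read 2.31 and 2.03 in knockdown, against 2.21 and 2.08 in scramble. Both genes were at background with overlapping groups, so no fold is given.

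Of the 10 genes, 6 (Aspn, Ogn, Bgn, Omd, Lum and Prelp) passed an adjusted p of 0.05 in the limma fit with the knockdown higher, and 0 passed with it lower. Over all 17097 genes, 11.4% passed in the higher direction and 7.18% in the lower. Groups did not overlap with the knockdown higher for 7 of the 10 genes, against 28.3% of all genes, and for 11 of the 14 probe sets, against 24.7% of all probe sets. Adjusted over all probe sets, 8 of the 14 passed with the knockdown higher, against 8.73% of all probe sets. Lum was not among them, and neither was the dimmer probe set of Prelp. Nothing is read from these counts, since the same contrast was in view when the family was chosen. The median log2 difference of the 10 genes was 0.49, against -0.04 over all genes. The passing call of Lum was lost without knockdown replicate 1, knockdown replicate 2 or scramble replicate 1, where its log2 difference was 0.34, 0.67 and 0.41, and under quantile normalization (0.50) and the replicate block (0.50). That of Prelp was lost without the same 3 arrays (0.43, 0.50 and 0.42) and under quantile normalization (0.34). Without each array in turn, 4 to 6 members passed. Aspn, Bgn, Ogn and Omd passed under every alternative run, as the plot of members under each alternative shows.

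**Figure D2:**
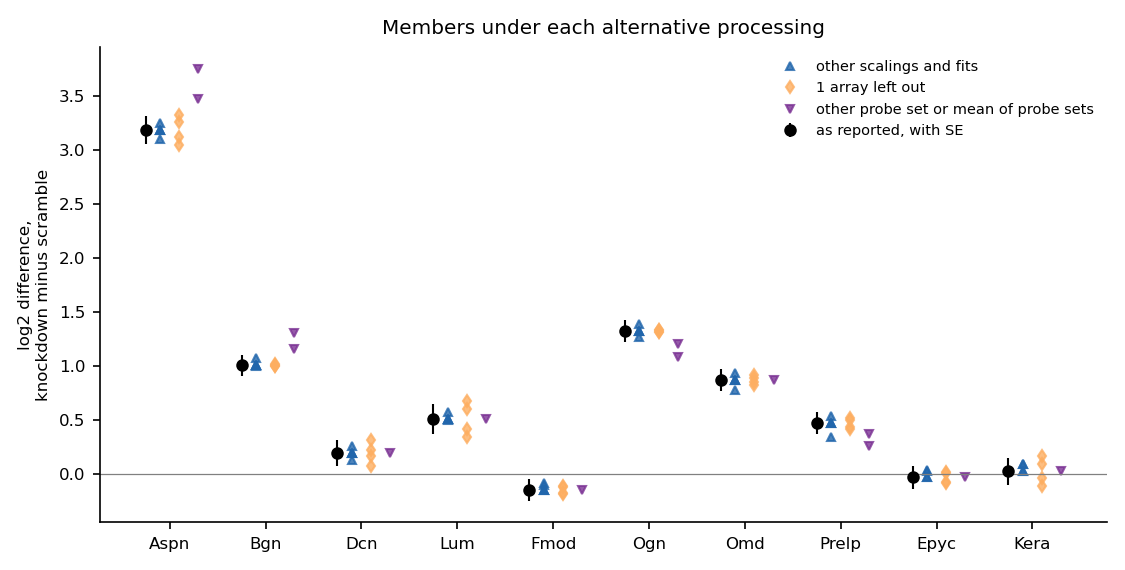
The log2 difference (knockdown minus scramble) of each member is plotted as reported, with its SE as a bar, beside its values under other scalings and fits, with 1 array left out, and from the other probe set or the mean of probe sets. Aspn stays between 3.05 and 3.76, Bgn, Ogn and Omd stay well above 0, and Epyc and Kera scatter on both sides of 0.

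Position on the chromosome was not part of how the family was listed, and 9 of the 10 genes lie in 3 groups of neighbours. In the RefSeq gene table (GRCm38.p6, used here for gene order only) the order on chromosome 13 is Ecm2, Aspn, Omd and Ogn, where Ecm2 is a related leucine-rich matrix gene. On chromosome 10 it is Dcn, Lum, Kera and Epyc, and on chromosome 1 Optc, Prelp and Fmod, while Bgn stands alone on chromosome X. The 3 members on chromosome 13 had log2 differences of 3.19, 0.87 and 1.32. The 4 on chromosome 10 had 0.19, 0.50, 0.02 and -0.04. The largest differences within the clustered genes thus all lay in the chromosome 13 group. Nothing is read from this, since these values were in view when the family was chosen. Ecm2 itself was at background, with 1.49 and 1.52 in knockdown against 1.49 and 1.76 in scramble. The genes that flank that group outside the family are Cenpp, a centromere protein gene, and Nol8, a nucleolar protein gene, and they had differences of -0.17 and -0.06. Further out, Ippk had -0.05, Iars 0.24 and Bicd2 0.61. These neighbours were looked up after the members' values had been seen and were not tested. The plot along the 4 loci shows each in its order.

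**Figure D3:**
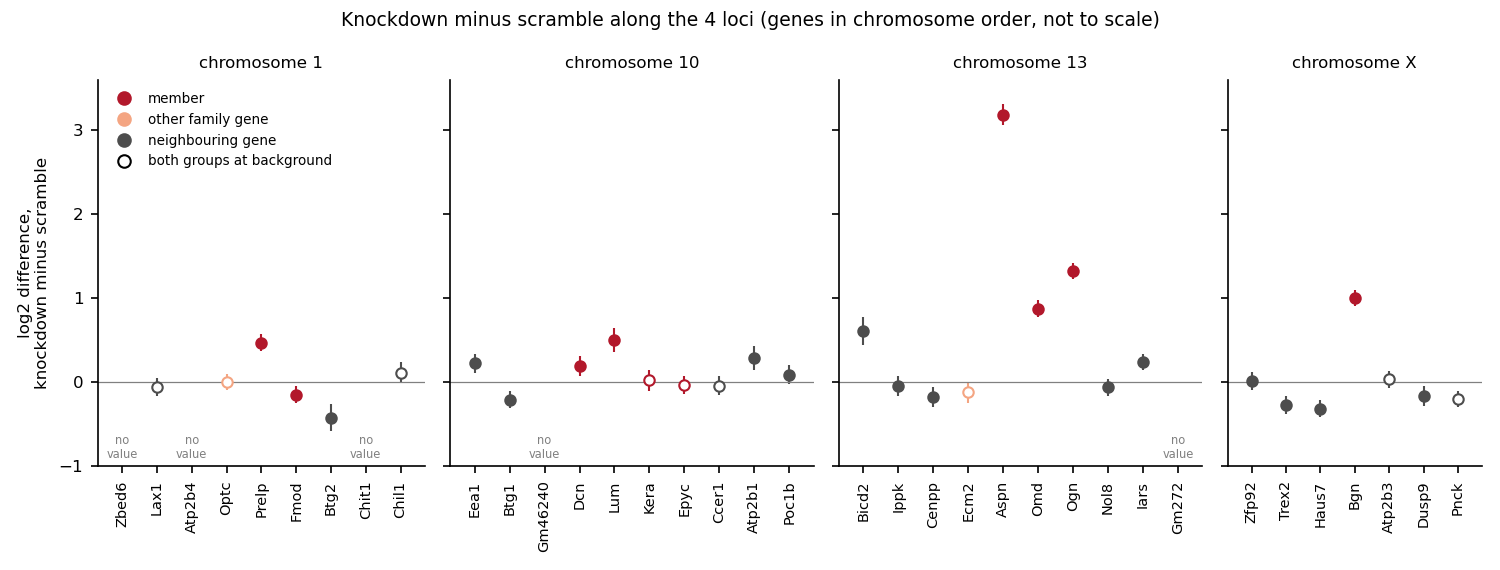
The log2 difference (knockdown minus scramble) of each gene is plotted with its SE in chromosome order, for the family members, other family genes and those of the 3 nearest protein-coding neighbours on each side that were measured, with open circles where both groups were at background. Aspn, Omd and Ogn stand together on chromosome 13 at 3.19, 0.87 and 1.32, between neighbours at -0.17 and -0.06.

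The RefSeq promoter table (GRCm38.p6) held 8 of the 10 genes, all but Dcn and Lum. The sequences given are the 250 bases before the start site of the 3 neighbours on chromosome 13 and of Bgn, on the strand of the gene, because these 4 genes had the largest differences. Capitals mark matches to 6 motifs searched on both strands: the TATA box (TATAAA), the CCAAT box (CCAAT), the GC box (GGGCGG), AP-1 (TGANTCA), TEAD (GGAATG) and SMAD (CAGAC). The regions are chr13:49544193-49544442 (+) for Aspn, chr13:49582212-49582461 (+) for Omd, chr13:49607765-49608014 (+) for Ogn and chrX:73483351-73483600 (+) for Bgn.
Aspn: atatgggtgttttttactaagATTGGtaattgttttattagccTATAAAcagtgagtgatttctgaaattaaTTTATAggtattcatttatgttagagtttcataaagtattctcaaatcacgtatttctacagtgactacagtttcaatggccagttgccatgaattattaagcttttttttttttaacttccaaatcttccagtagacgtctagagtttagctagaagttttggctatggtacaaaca
Omd: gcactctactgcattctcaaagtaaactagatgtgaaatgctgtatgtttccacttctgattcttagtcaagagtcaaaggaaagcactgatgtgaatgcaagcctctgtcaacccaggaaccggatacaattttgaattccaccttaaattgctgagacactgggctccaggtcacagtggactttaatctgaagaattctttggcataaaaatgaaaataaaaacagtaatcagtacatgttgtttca
Ogn: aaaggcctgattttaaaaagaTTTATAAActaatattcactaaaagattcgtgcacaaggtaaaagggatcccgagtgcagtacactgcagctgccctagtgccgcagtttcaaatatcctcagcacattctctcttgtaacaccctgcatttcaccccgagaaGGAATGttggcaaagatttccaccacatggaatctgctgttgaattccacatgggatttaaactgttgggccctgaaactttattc
Bgn: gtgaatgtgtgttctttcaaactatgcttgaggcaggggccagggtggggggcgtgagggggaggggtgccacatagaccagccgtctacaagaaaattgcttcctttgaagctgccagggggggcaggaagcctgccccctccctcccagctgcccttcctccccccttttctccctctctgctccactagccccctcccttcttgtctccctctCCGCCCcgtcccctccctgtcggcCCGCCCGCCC

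The 4 promoters had different base compositions. G and C made up 30.0% of the Aspn window, 38.4% of that of Omd and 42.0% of that of Ogn, against 64.4% of that of Bgn and a median of 52.4% over 32851 promoter entries. The 3 neighbours are thus poor in G and C, and Bgn is rich. Low values were not particular to these 3: Kera had 42.4% and the windows of Epyc 39.2% and 31.2%, both genes at background. Fmod had 51.2% and Prelp 55.6%. Aspn held 2 TATA box matches and 1 CCAAT box match, with first bases at positions -207, -178 and -229 from the start, Ogn held 2 overlapping TATA box matches and 1 TEAD match, and Omd held no match to any of the 6 motifs. Bgn held 3 GC box matches, 2 of them overlapping. The TATA box letters occur in 12.4% of all entries, the CCAAT box in 33.8%, the GC box in 32.7%, AP-1 in 6.75%, TEAD in 12.6% and SMAD in 42.2%. No motif was found in all 3 of the chromosome 13 windows. A match is a match of letters only.

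The other genes of the pathway were taken from 6 lists and tested in the same limma fit, with Benjamini-Hochberg adjustment over all 17097 genes, of which 18.5% passed in either direction. The lists were written with earlier results of these data known. The plot of the pathway lists gives every gene.

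**Figure D4:**
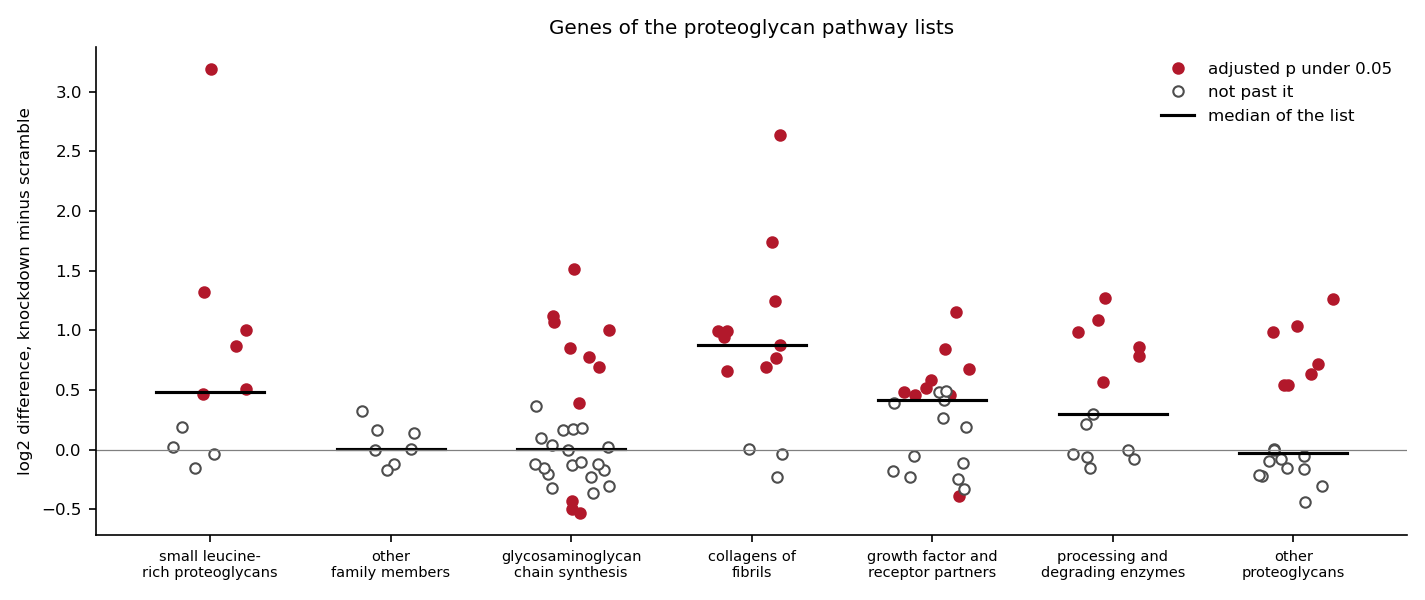
The log2 difference (knockdown minus scramble) of each measured gene of the family and of the 6 pathway lists is plotted, filled where the adjusted p was under 0.05 and open where it was not, with the median of each list as a bar. The collagen list has the highest median, 0.88, and the other family members lie around 0.

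Related leucine-rich proteins of the same superfamily gave 0 calls in either direction by limma. Of 9 listed, 7 were measured, 4 of them were at background in both groups, and the median log2 difference was 0.001. Nepn, which encodes nephrocan, had the largest difference, 0.32 (adjusted p = 0.0663), with 2.54 and 2.61 in knockdown against 2.27 and 2.23 in scramble, around the background value. Podn, the gene of podocan, was above background and had a log2 difference of 0.16. Optc, which neighbours Prelp, was at background.

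The list for sugar chain synthesis, which also holds tyrosine sulfotransferases and genes of sulfate supply, went both ways, with 8 of 30 measured genes higher, 3 lower and 19 not called, and a median of 0.006. By role, the 8 higher calls were 6 of the 7 measured genes that build chondroitin chains or turn them into dermatan, and both genes of tyrosine sulfation. Dse, the epimerase that converts chondroitin to dermatan, read 5.92 and 5.88 in knockdown, against 4.30 and 4.48 in scramble, and was 2.85-fold higher (adjusted p = 0.000557). Its relative Dsel was 2.17-fold higher (adjusted p = 0.00224). Csgalnact1, which starts chondroitin chains, was 2.10-fold higher (adjusted p = 0.00131), and the chondroitin synthase gene Chsy1 was 2.00-fold higher (adjusted p = 0.00157). Csgalnact2 and Chpf2 were the other 2, and Tpst1 and Tpst2 sulfate tyrosines of proteins. These 4 genes were picked out after their values were seen, and 3 of them lost their calls under an alternative. That of Chpf2 was lost without knockdown replicate 1, knockdown replicate 2 or scramble replicate 2, and that of Tpst1 without knockdown replicate 2. That of Tpst2 was lost without each of the 4 arrays in turn, under quantile normalization and with the replicate block.

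Enzymes of the shared linkage sugars gave no call in 4 measured genes, with log2 differences between -0.32 and 0.17, and the 5 keratan sulfate enzymes gave none, between -0.12 and 0.36. Of 8 chondroitin and dermatan sulfotransferase genes 1 fell, Chst15, with a log2 difference of -0.53 (adjusted p = 0.0288). Its second probe set had 0.54, so the direction of Chst15 is not settled, and the mean of both gave 0.006. Of the 4 genes that supply sulfate 2 fell: Slc35b2, the Golgi carrier of the sulfate donor, by 0.50 on the log2 scale (adjusted p = 0.0233), and the sulfate transporter gene Slc26a2, by 0.43 (adjusted p = 0.0273). All 3 falling genes lost their calls without knockdown replicate 1, knockdown replicate 2 or scramble replicate 2.

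Collagens of the fibrils and of their surface were the list with the largest share of calls, with 10 of 13 higher, 0 lower and a median log2 difference of 0.88. Col11a1, a minor fibrillar collagen gene, read 5.39 and 5.45 in knockdown, against 2.79 and 2.78 in scramble (6.23-fold, adjusted p = 0.000134). Col1a1 and Col5a1 were 3.35-fold and 2.36-fold higher (adjusted p = 0.000331 and 0.000858), and Col6a2 was 2.00-fold higher (adjusted p = 0.00259). The 3 probe sets of Col5a1, all above background, ranged from -0.08 to 1.24 on the log2 scale, with a mean of 0.74. A second probe set of Col6a2 had a log2 difference of 0.27. Col1a2 had scramble values at background and was at least 1.29-fold higher, its knockdown mean being set against the background value (adjusted p = 0.00307). The genes not called were Col2a1 of cartilage, Col12a1 and Col14a1.

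The next list, called binding partners further on, holds growth factors and receptors that family members are known to bind. It also holds receptors of such growth factors, which the members need not bind themselves. Of its 21 measured genes, 8 were higher and 1 lower, with a median of 0.42. Ccn4, which encodes a secreted CCN protein that binds decorin and biglycan, was 2.22-fold higher (adjusted p = 0.00097). A second probe set of Ccn4 had a log2 difference of 0.37. The integrin beta-1 gene Itgb1 was 1.79-fold higher (adjusted p = 0.00256) and Egfr, a decorin receptor, 1.60-fold (adjusted p = 0.00731). Igf1r had a log2 difference of 0.58 (adjusted p = 0.0099), and Tgfbr2, the type II TGF-beta receptor gene, fell by 0.39 on the log2 scale (adjusted p = 0.0355). Tgfbr1 and Tgfbr3, also TGF-beta receptor genes, were higher by 0.46 each (adjusted p = 0.0264 and 0.021). Both were picked out after their values were seen. With the mean of all probe sets their differences were 0.11 and 0.15, and neither passed. The call of Tgfbr2 was lost without each of the 4 arrays in turn and after median centring. That of Egfr was lost without knockdown replicate 2, and that of Igf1r without either knockdown array. With the mean of all probe sets neither Egfr nor Igf1r passed. Their probe sets ranged from -0.06 to 1.15 for Egfr and from -0.28 to 0.58 for Igf1r, and those of Itgb1 from -0.00076 to 0.98. The ligands Tgfb1, Tgfb2 and Bmp2 were at background in both groups, and Tgfb3 read 3.35 and 3.64 in knockdown, against 2.95 and 3.21 in scramble (adjusted p = 0.0907). The number of higher members in this list was 3 without knockdown replicate 1 and 2 without knockdown replicate 2.

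Of 13 enzymes and helpers that process collagen or cut proteoglycans, 6 were higher and 0 lower, and 7 did not pass, 6 of those at background in both groups. Mmp14, a membrane collagenase that also cuts lumican and decorin, was 2.42-fold higher (adjusted p = 0.000927), and the gelatinase gene Mmp2 2.12-fold (adjusted p = 0.00169). A second probe set of Mmp14 had a log2 difference of -0.08. Pcolce and Pcolce2, which enhance procollagen cleavage, were 1.81-fold and 1.98-fold higher (adjusted p = 0.00249 and 0.00252). Bmp1, the protease that matures biglycan, had a log2 difference of 0.30 (adjusted p = 0.135).

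Proteoglycans outside the family gave 7 higher genes of 18, 0 lower and a median of -0.03. The 4 with the largest differences were the glypican genes Gpc6 and Gpc4 at 2.40-fold and 2.05-fold (adjusted p = 0.00309 and 0.00198), the syndecan gene Sdc2 at 1.98-fold (adjusted p = 0.00192) and Gpc1 at 1.65-fold (adjusted p = 0.00473). The probe sets of Gpc6 ranged from 0.21 to 1.26 on the log2 scale, and those of Sdc2 from 0.37 to 1.00. Other syndecan and glypican genes were not called, with log2 differences of -0.21 for Sdc4, -0.01 for Sdc3, -0.08 for Gpc2 and -0.09 for Gpc5, the last at background. A dimmer probe set of Sdc4 had 0.76, so the direction of Sdc4 is not settled. The large chondroitin sulfate proteoglycan gene Vcan read 6.91 and 7.06 in knockdown, against 6.99 and 6.97 in scramble, while a dimmer probe set of it had a log2 difference of 0.91. Without knockdown replicate 1, and likewise without replicate 2, 4 of these genes passed.

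By the Euclidean distance of values centred on each gene's mean, over the 4 arrays, the genes nearest to Aspn were Col8a1, a short-chain collagen gene (distance 0.34 log2 units), Itgbl1, an integrin-like gene (0.40), and the histone gene H3c15 (0.46). Col8a1 read 7.33 and 7.49 in knockdown, against 4.21 and 4.39 in scramble. With 4 arrays in 2 groups this ranking reflects little beyond the size of the group difference.

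Several measures moved with the groups. The fat cell markers Adipoq, Fabp4, Pparg, Lipe and Cebpa were above background on all arrays. Of these 5, Cebpa was lower in knockdown, with a log2 difference of -0.47 (adjusted p = 0.0368). The others did not pass, Lipe at -0.33 with groups that did not overlap (adjusted p = 0.0605). Fabp4 had 0.02 in its brightest probe set, but its 3 probe sets ranged from -0.69 to 0.15, with a mean of -0.18. All 5 of 5 brown fat markers were lower in knockdown, where the mean of Dio2 was at background. Of 7 measured fibroblast or progenitor markers, 5 were higher in knockdown (Pdgfra, Pdgfrb, Thy1, Cd34 and Dlk1). The summed linear values of the 7 were 158 on both knockdown arrays against 93.9 and 110.3 in scramble. Cd34 had scramble values at background and was at least 1.69-fold higher, its knockdown mean being set against the background value. Dpp4 was not called, with a log2 difference of 0.11, and its other probe set had -0.85. Pi16 was at background, and the annotation used here gave no single-symbol probe set for Ly6a. Of 7 tendon or cartilage markers 1 was higher, the tenomodulin gene Tnmd (2.25-fold, adjusted p = 0.0128). It read 4.17 and 3.52 in knockdown, against 2.54 and 2.83 in scramble, the scramble values being close to background. Scx, Mkx, Acan and Comp were at background in both groups. The summed values of the 7 markers were 51.5 and 46.7 in knockdown against 42.9 and 42.5 in scramble. Among mural, endothelial and leukocyte markers 1 of 6, 1 of 5 and 1 of 5 were higher (Acta2, Tek and Adgre1), and Cdh5, Emcn and Ptprc were at background. Myh11, which marks smooth muscle, was not called, and its brightest probe set was at background. Its other probe set had a log2 difference of -0.35, with only the scramble mean above background. Of 5 liver markers 4 were lower in knockdown and 1, the transferrin gene Trf, was higher (log2 difference 0.79, adjusted p = 0.0099). The albumin gene Alb read 4.43 and 2.50 in knockdown, against 6.28 and 5.70 in scramble, and Serpina1c, Apoa1 and Ttr had log2 differences of -2.42, -1.30 and -1.10. The knockdown mean of Serpina1c, 2.48, was at background, and that of Ttr was 2.55. Of 5 skeletal muscle markers 1 was lower, Myod1, with a log2 difference of -0.43 (adjusted p = 0.0267). It read 2.26 and 2.27 in knockdown, at background, against 2.66 and 2.73 in scramble, close to background. Signs of RNA quality also differed between the groups. For Actb, the control probe set at the 3' end minus that at the 5' end gave log2 values of 1.77 and 1.88 in knockdown, against 0.99 and 1.15 in scramble. For Gapdh the same difference was 0.34 and 0.40 in knockdown, against 0.09 and 0.04 in scramble. The 18S ribosomal control read 6.64 and 7.01 in knockdown, against 5.13 and 4.43 in scramble, and 60.4% and 60.3% of probe sets were above background in knockdown, against 62.8% and 63.0% in scramble. The part of these measures in the members' differences was not tested. In RNA from a whole culture, more cells of a type and more RNA per cell cannot be told apart.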

How the data were processed

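The deposited values are log2 expression values of 45141 probe sets on 4 arrays, for which the submitters' processing notes list the tools affy, RMA and limma. How the authors normalized them in detail, and with which versions, is not stated in those notes. The 104 control probe sets were left out. The array annotation paired 28898 probe sets with 1 symbol, 551 with several and 15588 with none. Each gene was read from its brightest single-symbol probe set. Knockdown and scramble were compared with limma 3.58.1 in R 4.3.3 (lmFit and eBayes, 2 residual degrees of freedom), with Benjamini-Hochberg adjustment over 17097 genes and a two-sided threshold of 0.05. The code was tested on simulated data. The members and lists were chosen with earlier results of these data known. Named pathway genes were up to 4 called genes per direction with the largest change, or all called where 5 or fewer were. The p-values and SEs measure only the spread between these arrays, for each probe set drawn towards a variance shared by all probe sets. The shared part counted as 4.93 prior degrees of freedom, and 2 arrays per group limit the precision. The alternatives were other scalings, filters, probe set rules, a replicate block and leaving out each array.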

Additional observations from a re-analysis of the deposited data

How the results depend on the processing

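Across the alternatives, 4 members (Aspn, Bgn, Ogn and Omd) passed under each, and 0 members passed with the knockdown lower under any. The number of members higher was 4 under quantile normalization and 5 with the replicate block, against 6 as reported, and 4 to 6 without each array in turn. The replicate numbers share only a number: deviations of same-numbered arrays correlated at 0.04, and no label ties them. Epyc and Kera, at background, changed sign in 6 cases, with Epyc between -0.09 and 0.04 and Kera between -0.12 and 0.16. Scaling moved the balance of calls over all genes, with 1514 higher and 1564 lower under quantile normalization and 2383 and 844 after median centring, against 1941 and 1228 as reported. With every probe set on its own, 3933 were higher and 2423 lower. Without each array in turn, 795 to 1681 genes were higher and 255 to 1168 lower, with the fewest in both directions without knockdown replicate 2. Sugar chain enzymes then gave 5 to 7 higher and 0 to 3 lower, binding partners 2 to 8 higher and 0 lower, and other proteoglycans 4 to 7 higher. Binding partners gave 5 higher under quantile normalization and 4 with the mean of probe sets, and 0 lower after median centring and 2 with every probe set. Other family members gave 1 higher under quantile normalization, median centring and the mean of probe sets. Other proteoglycans gave 12 higher with every probe set and 1 lower with the replicate block. Chst15 reversed to 0.0064 with the mean of its probe sets. Leaving out an array leaves fewer samples to the fit. For the other changes the cause was not tested.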
